A study of Homo sapiens with 18 samples.

Results

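The respiratory chain subunits are the proteins of oxidative phosphorylation complexes I, III, IV and V, which 2 genomes encode between them. Members were every protein-coding gene of both count tables whose symbol, in the GENCODE annotation of GRCh38, starts with NDUFA, NDUFB, NDUFC, NDUFS or NDUFV (the assembly factors named NDUFAF left out), UQCR, COX4 to COX8, ATP5 or MT-. This rule gave 99 genes of the 61541 listed, of which 19967 are protein-coding. The nucleus encodes 86 of them, 38 in complex I, 9 in complex III, 19 in complex IV and 20 in complex V, and mitochondrial DNA encodes the other 13, of which 7 belong to complex I, 1 to complex III, 3 to complex IV and 2 to complex V. NDUFA4 and its paralogue NDUFA4L2 were placed with complex IV, where NDUFA4 sits in spite of its name.

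The cells were wild-type A549, an established line from a human lung adenocarcinoma, and total RNA was sequenced in bulk from 6 groups, 3 libraries in each. Sodium propionate (SP), the salt of a short-chain fatty acid made by gut bacteria, was given at 5 mM for 3 h, 24 h, 3 days or 12 days. Untreated controls were taken at 24 h and at 3 days, and the 3 h, 24 h and 24 h control libraries stand in a table of their own, apart from the 3 day, 12 day and 3 day control libraries. SP at 3 h therefore has only the 24 h control, and SP at 12 days only the 3 day control, so that there the length of treatment and the length of culture cannot be told apart.

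Complex I takes electrons from NADH and complex III from ubiquinol, complex IV passes them from cytochrome c to oxygen, and complex V, the ATP synthase, uses the proton gradient that the others build. Mitochondrial DNA is transcribed as long polycistronic RNAs that are cut at the tRNAs between the genes, so that the levels of the 13 mRNAs also depend on this cutting and on their stability, whereas the nuclear subunits are transcribed one gene at a time from scattered promoters. Many nuclear subunit promoters are known to carry sites for the factors NRF1, YY1 and GABP, an ETS factor.

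Levels are given in CPM, the count of a gene relative to the total count of its library after scaling by edgeR's TMM factors, and changes as log2 fold changes with their standard error (SE) from the quasi-likelihood test of edgeR, fitted on all genes and libraries of a table. A member is said to have risen or fallen where the p adjusted by Benjamini-Hochberg over all tested genes was under 0.05. The stricter thresholds of the study, an adjusted p under 0.0001 with a change of at least 2-fold, were counted beside it. Of the 99 members 92 could be tested in both tables, all 13 mitochondrial and 79 nuclear. The 7 that could not be tested, COX4I2, COX6A2, COX7B2, COX8C, ATP5MGL and the readthrough genes ATP5MF-PTCD1 and NDUFC2-KCTD14, had at most 6 reads in any library.

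The libraries held 14187401 to 43765330 counted reads. The biological coefficient of variation, the typical spread between libraries of a group, was 0.0996 in the 3 day and 12 day table and 0.199 in the 3 h and 24 h table, so that the later comparisons were the more precise. The labels do not say that libraries of a group came from separate cultures. The study calls its control, 3 h and 24 h RNA-seq samples biological replicates, and for 3 and 12 days it gives only their number. The p-values measure the spread between these libraries only, which may be technical in the 3 day and 12 day table. The keratin KRT8 stood at 3691 to 8665 CPM and the aldehyde dehydrogenase ALDH1A1, which A549 cells express strongly, at 4071 to 9004 CPM, while the epithelial adhesion genes CDH1 and EPCAM ranged from 19.4 to 434 and from 5.57 to 66.4 CPM. CDH1 had means of 34.7 CPM in the 24 h control and 162 at SP 24 h, and EPCAM of 9.83 in the 3 day control and 53.6 at SP 12 days. Of 6 genes of other cell types CD3E had no read, PTPRC, VWF and PECAM1 stayed at or below 0.669 CPM and COL3A1 at or below 4.21, but the collagen gene COL1A1 had means of 13.3 CPM in both controls, 74.4 at SP 24 h and 61.9 at SP 3 days, and the part of these shifts in the members' values was not tested. The alveolar genes SFTPC, SFTPB, SFTPA1 and NKX2-1 did not exceed 1.91 CPM. In bulk RNA a change of a transcript per cell and a change in the mix of cells cannot be told apart.

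The 13 mitochondrial genes took a larger share of the counted reads than the 86 nuclear genes together in every library. In the 24 h control libraries the mitochondrial share was 2.09%, 2.18% and 2.21%, and in the SP 24 h libraries 2.29%, 2.67% and 2.52%. All 3 SP libraries thus lay above the 3 controls, with a mean of 2.49% ± 0.19 against 2.16% ± 0.064 (SD, n = 3 each). The nuclear share moved the other way, from 0.929%, 0.795% and 0.780% in the 24 h controls to 0.718%, 0.675% and 0.760% after 24 h of SP, again without overlap. Mitochondrial over nuclear reads were 2.61 ± 0.32 in the control, 2.92 ± 0.40 at 3 h and 3.49 ± 0.41 at 24 h (mean ± SD, n = 3 each).

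In the later table neither share parted SP from control. Mitochondrial shares were 4.55%, 4.49% and 4.80% in the 3 day control, 4.30%, 4.48% and 4.72% at SP 3 days and 4.23%, 3.83% and 4.62% at SP 12 days, and the ranges overlapped. Nuclear shares were 0.691% to 0.762% in the 3 day control, 0.697% to 0.714% at SP 3 days and 0.722% to 0.757% at SP 12 days, also overlapping, and mitochondrial over nuclear reads were 6.28 ± 0.27, 6.37 ± 0.22 and 5.72 ± 0.62 (mean ± SD, n = 3 each). With 3 libraries against 3, an exact permutation test of a share cannot go below p = 0.1, and none is given. The mitochondrial share was higher in the later table, controls included, and the tables were not compared by a test.

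**Figure D1:**
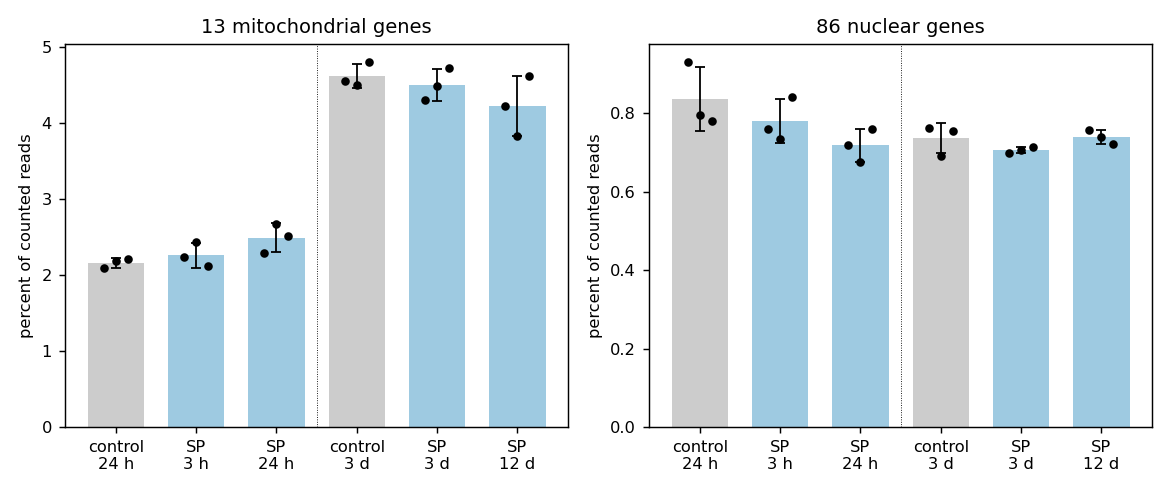
Percent of counted reads (vertical axes) on the 13 mitochondrial genes (left) and the 86 nuclear genes (right) in the 6 groups. Bars are means, error bars SD and points the 3 libraries of a group, and the dotted line parts the 2 tables. At 24 h the SP points lie above the control points on the left (2.29% to 2.67% against 2.09% to 2.21%) and below them on the right (0.675% to 0.760% against 0.780% to 0.929%).

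Per kilobase of the Ensembl canonical transcript, the median mitochondrial gene stood at 1243 CPM per kb in the 24 h control and the median tested nuclear member at 82.9 CPM per kb. On this scale MT-CO3, a core subunit of complex IV, was highest at 5007 and MT-ND6 of complex I lowest of the mitochondrial genes at 594. ATP5F1B, the catalytic beta subunit of the ATP synthase, led the nuclear members at 561 CPM per kb, and the testis isoform COX6B2 was lowest at 0.14. In the 3 day control the medians were 2896 and 66.9 CPM per kb.

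Across the 4 comparisons with control, the 2 genomes gave different counts. At 3 h 1 of 79 nuclear members rose and 1 fell, where 7.39% of all 17377 tested genes rose and 4.11% fell. No mitochondrial gene was called at 3 h by edgeR, with 1 of 13 higher at an unadjusted p under 0.05 and 0 called by DESeq2. The median nuclear log2 fold change was -0.13 against 0.00 for all tested genes, and 76 of 79 values were negative, and 6 nuclear members (7.59%) had all SP libraries below all controls, where 11.7% of all tested genes did. That median was -0.02 without control 24 h replicate 1 and -0.21 without SP 3 h replicate 3. No gene passed the stricter thresholds in this edgeR fit (0% of the genes tested). With DESeq2, which the study used, 2.02% of all genes passed them, and COX6B2 was the one member among them, as it was in edgeR without the filter on low counts.

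At 24 h 20 nuclear members fell and 2 rose, that is 25.3% and 2.53% of the 79, where 12.0% of all tested genes fell and 16.8% rose. Their median log2 fold change was -0.28 against -0.01 for all tested genes, and 70 of 79 values were negative. In 39 members (49.4%) every SP library lay below every control, and in 2 above, where 19.8% and 24.6% of all tested genes did so. The mitochondrial genes went the other way, with 4 of 13 risen, 0 fallen (0 also at an unadjusted p under 0.05 and by DESeq2) and a median of 0.23. No member passed the stricter thresholds in edgeR, which 0.685% of all tested genes passed, while with DESeq2 COX6B2 and 4.95% of all genes passed them, and COX6B2 also in edgeR without the filter.

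The 24 h counts moved with individual libraries, and so did those over all genes, of which 12.0% fell with every library in. Control 24 h replicate 1 had the highest nuclear share of the 9 libraries of its table (0.929%), and without it 9 nuclear members and 8.15% of all genes fell and 0 mitochondrial genes rose. Without SP 24 h replicate 1, 2 or 3 the nuclear members that fell were 9, 3 and 8, beside 8.79%, 5.22% and 6.12% of all genes, and without SP 3 h replicate 1, which enters only through the shared fit, 11, beside 9.56%. Mitochondrial rises numbered 0 without control 24 h replicate 2, SP 24 h replicate 2 or SP 24 h replicate 3, and 2 without SP 3 h replicate 1 or SP 24 h replicate 1. In these fits 10.6% to 14.9% of all genes rose. The direction of the nuclear median was negative in each of these. With offsets for GC content and length 32 nuclear members fell at 24 h, but 25.2% of all genes then did too.

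At 3 days 17 nuclear members fell and 7 rose, or 21.5% and 8.86% of them, where 23.3% of all 17775 tested genes fell and 25.2% rose. The share that fell was thus near that of all genes and the share that rose below it. The median was -0.03 against -0.02 for all tested genes. No mitochondrial gene was called by edgeR, 0 had an unadjusted p under 0.05 and DESeq2 called 0. A fit of the 2 groups alone, in place of all 9 libraries, called 1 higher and 2 lower, where 28.7% of all genes rose and 29.0% fell. The fit without SP 12 day replicate 3 called 1 higher and 4 lower, where 28.6% of all genes rose and 29.0% fell. Without control 3 day replicate 2 the nuclear rises numbered 4, where 22.3% of all genes rose. The stricter thresholds were passed by 1 nuclear member in each direction and by 8.44% of all tested genes.

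At 12 days 12 nuclear members had risen and 9 fallen (15.2% and 11.4%), where 26.4% of all tested genes rose and 23.4% fell, so that both shares lay below those of all genes. The median was 0.05 against -0.00 for all tested genes, and it ranged from -0.01 (without control 3 day replicate 2) to 0.08 when single libraries were left out. Of the mitochondrial genes 2 fell and 0 rose (0 also at an unadjusted p under 0.05 and by DESeq2), with a median of -0.17. The stricter thresholds were again passed by 1 nuclear member in each direction, where 9.11% of all tested genes passed them. SP at 3 and 12 days share their control libraries, as do SP at 3 and 24 h, so the values within either pair are not independent. Without control 3 day replicate 2, 14 nuclear members and 4 mitochondrial genes fell at 12 days, where 21.0% of all genes fell. Without SP 12 day replicate 3, 5 mitochondrial genes fell, where 27.6% of all genes did.

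Complex I, the largest complex, held most of the nuclear falls by number. At 24 h 15 of its 37 tested nuclear members (40.5%) fell, where 12.0% of all genes did, and 0 rose (0 also at an unadjusted p under 0.05 and by DESeq2), against 2 of 9 in complex III, 1 of 15 in complex IV and 2 of 18 in complex V. The median log2 fold changes were -0.36, -0.20, -0.27 and -0.28 in that order. At 3 days 13 complex I members fell (35.1%, where 23.3% of all genes did) and 1 rose, while complex III had 2 rises and 0 falls (1 lower at an unadjusted p under 0.05 and 0 by DESeq2), complex IV 2 rises and 1 fall and complex V 2 rises and 3 falls. At 12 days the rises numbered 3, 2, 5 and 2 in complexes I, III, IV and V (8.11%, 22.2%, 33.3% and 11.1%), where 26.4% of all genes rose. At that time 7 members of complex I, 1 of complex IV and 1 of complex V fell. The 12 day share of complex I, 18.9%, lay below the 23.4% of all genes that fell. The difference between complexes was not tested.

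Within complex I the 7 nuclear core subunits, which carry the iron-sulphur clusters and the NADH site, and the 30 tested accessory subunits, which surround them, gave unequal counts. At 24 h 1 core (14.3%) and 14 accessory subunits (46.7%) fell, with medians of -0.13 and -0.38, where 12.0% of all genes fell. At 3 days 1 core (14.3%) and 12 accessory subunits (40%) fell, where 23.3% of all genes did. There 1 accessory subunit rose (3.33%, against 25.2% of all genes). At 12 days 1 core (14.3%) and 6 accessory subunits (20%) fell and 3 accessory subunits rose (10%). These shares lay below the 23.4% of all genes that fell and the 26.4% that rose. The difference between core and accessory subunits was not tested. The core subunit that fell each time was NDUFS3.

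Among the mitochondrial genes the rise at 24 h lay in complex I and cytochrome b. MT-ND1, a membrane core subunit, stood at 926, 984 and 1267 CPM in the 24 h control and at 1446, 1608 and 1540 after 24 h of SP, all higher, a log2 fold change of 0.53 (SE 0.16, edgeR quasi-likelihood, adjusted p = 0.0373). MT-ND4 moved from 2107, 2409 and 2672 to 3107, 3603 and 3197 CPM (0.46, SE 0.13, edgeR quasi-likelihood, adjusted p = 0.0288). MT-ND4L, which shares the bicistronic mRNA of MT-ND4 and overlaps it by 7 bases, moved from 260, 276 and 297 to 350, 395 and 378 CPM (0.43, SE 0.12, edgeR quasi-likelihood, adjusted p = 0.0233). In each of these genes the SP libraries lay clear of the controls.

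MT-CYB, the mitochondrially encoded subunit of complex III, rose from 1370, 1464 and 1420 to 1620, 1844 and 1740 CPM (0.29, SE 0.09, edgeR quasi-likelihood, adjusted p = 0.042), also without overlap. It was the least secure of the 4 calls, since it did not pass without any one of the 9 libraries of the table, whereas MT-ND4 and MT-ND4L failed without 4 of them (control 24 h replicates 1 and 2, SP 24 h replicates 2 and 3) and MT-ND1 without those, SP 3 h replicate 1 or SP 24 h replicate 1. Its adjusted p in edgeR's quasi-likelihood test was also 0.0563 with RLE factors, 0.0814 without the filter on low counts and 0.087 with only the 2 groups fitted (0.0524 with a block). With the replicate number as a block MT-ND1 had an adjusted p of 0.0678 in edgeR's quasi-likelihood test.

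The largest 24 h values among the mitochondrial genes did not pass. MT-ND5 read 670, 1143 and 1774 CPM in the 24 h control, 1771, 1886 and 815 at SP 3 h and 1866, 2031 and 2177 at SP 24 h, with a log2 fold change of 0.76 at 24 h (SE 0.37, edgeR quasi-likelihood, adjusted p = 0.159). MT-ND6, the only one of the 13 encoded on the other strand, directly beside the end of MT-ND5, read 186, 299 and 450, then 485, 496 and 210, then 509, 552 and 583 CPM (0.81 at 24 h, SE 0.36, edgeR quasi-likelihood, adjusted p = 0.126). All SP 24 h libraries lay above all controls in both genes, but 1 control and 1 SP 3 h library lay far below the others of their groups.

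Those same libraries, control 24 h replicate 1 and SP 3 h replicate 3, also gave the highest shares of mitochondrial rRNA reads in the table, 1.55% and 1.59%, where the other 7 lay between 0.933% and 1.44%. The part of this in the MT-ND5 and MT-ND6 values was not tested. MT-ND6 reads were 19.9% to 27.7% of MT-ND5 reads in every library, and whether strand was used in counting is not given in the sources used here, so reads of MT-ND6 and antisense reads past the end of MT-ND5 cannot be told apart. In a fit of the 2 groups alone with a replicate block, chosen after seeing the data, both passed (adjusted p of edgeR's quasi-likelihood test 0.0342 and 0.0215).

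The other mitochondrial genes at 24 h gave smaller values, none of which passed. MT-CO1, MT-CO2 and MT-CO3, the catalytic core of complex IV, had log2 fold changes of 0.05, 0.04 and -0.18, and MT-ATP6 and MT-ATP8, the membrane subunits of the ATP synthase, 0.09 and 0.23. MT-ND2 and MT-ND3 had 0.09 and -0.14. The 13 genes thus spread from -0.18 to 0.81 at 24 h although most stem from the same polycistronic RNA.

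At 12 days the values lay mostly below 0. MT-ATP6 stood at 3438, 3113 and 3572 CPM in the 3 day control and at 2889, 2424 and 2643 at SP 12 days, a log2 fold change of -0.35 (SE 0.10, edgeR quasi-likelihood, adjusted p = 0.0064). MT-ND5 fell from 3063, 3111 and 3388 to 2809, 2466 and 2304 CPM (-0.34, SE 0.09, edgeR quasi-likelihood, adjusted p = 0.0076). Neither gene's groups overlapped. MT-ATP8, which overlaps MT-ATP6, had -0.32 with an adjusted p of 0.0537 in the same edgeR test, and MT-ND4L -0.32. MT-CO1 alone had a value above 0.20 at 3 days, from 12777, 13186 and 14490 CPM in the control to 14566, 15653 and 16457 (0.21, not passed). MT-ND1 had 0.16 at 12 days, the highest of the 13.

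**Figure D2:**
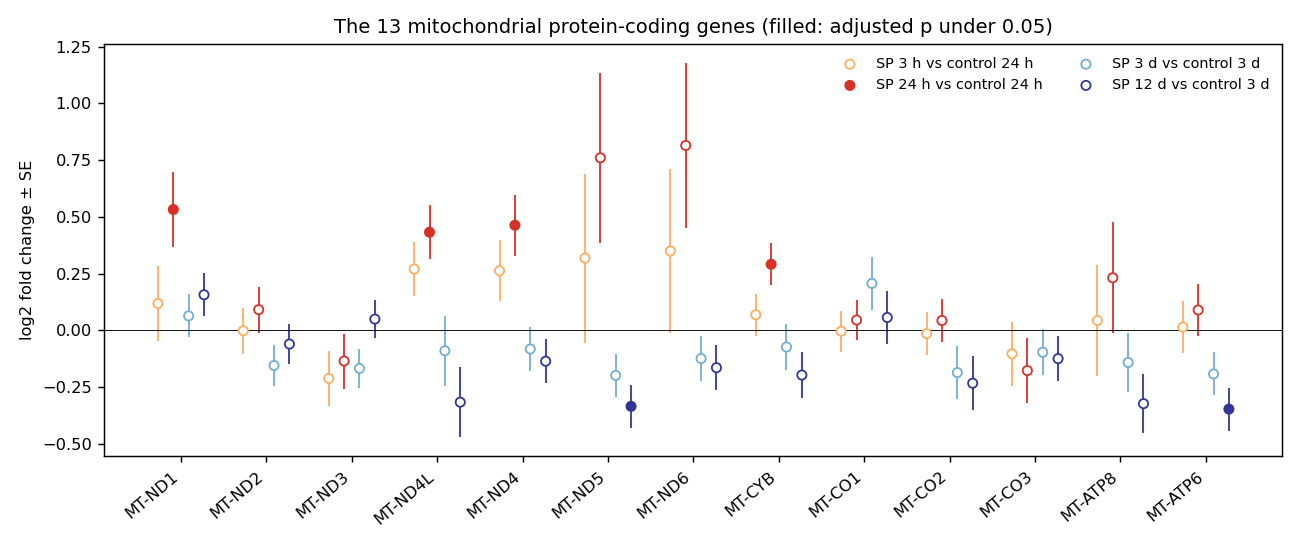
Log2 fold change with its SE (vertical axis) of the 13 mitochondrial protein-coding genes (horizontal axis) in the 4 comparisons with control, told apart by colour; filled points had an adjusted p under 0.05. Filled points are MT-ND1, MT-ND4L, MT-ND4 and MT-CYB at 24 h, above 0, and MT-ND5 and MT-ATP6 at 12 days, below 0, and the bars of MT-ND5 and MT-ND6 at 3 h and 24 h are the longest.

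Of the 20 nuclear members that fell at 24 h, 13 also fell at 3 days (65% of the 20 and 76.5% of the 17 that fell then) and 8 also at 12 days (40% of the 20 and 88.9% of the 9). The matching shares over all tested genes were not counted, so these shares are not read as particular to the members. The 24 h comparison has control libraries of its own. Those at 3 and 12 days share the 3 day control and are not independent of each other. The 8 genes were NDUFA9, NDUFB2, NDUFB11, NDUFC1, NDUFS3, NDUFS4 and NDUFS6 of complex I and ATP5MC2 of complex V. The NDUFB11 values, -0.38, -0.24 and -0.27 in the order of the times, were looked up after its calls were seen, and its libraries overlapped the controls at 3 and 12 days.

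Promoters are shown for 3 of these complex I members and, further on, for UQCR11, which rose, and for the isoform pair COX6B1 and COX6B2, as examples of members with and without the known motifs. Each runs from 250 bases before to 50 after the start of the gene in RefSeq on GRCh38.p14, and 68 of the 86 nuclear members had one or more, 81 promoters in all, since 9 members had from 2 to 4 starts. On both strands, GCATGCGC, a core of the NRF1 site, was found in 16.0% of these 81 promoters and in 3.05% of the 35116 promoters of the table, CCGGAAG, an ETS core, in 24.7% and 10.3%, and AAGATGGC, a YY1 core, in 14.8% and 2.89%. Counted by gene, with a match in any of its promoters, these were 12, 19 and 11 of the 68 members (17.6%, 27.9% and 16.2%), against 3.68%, 12.2% and 3.52% of all 27305 symbols. Capitals mark such matches, in the orientation in which they stand. A match describes the letters and does not show binding.

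NDUFS6, at chr5:1801157-1801456 on the plus strand, had 1 NRF1 core, NDUFS3, at chr11:47578824-47579123 on the plus strand, 2 ETS cores, and NDUFB2, at chr7:140696458-140696757 on the plus strand, none of these letters. The RefSeq starts of NDUFS3 and NDUFB2 lie inside the longer GENCODE genes, so that reads counted for these genes may come from other starts.
NDUFS6: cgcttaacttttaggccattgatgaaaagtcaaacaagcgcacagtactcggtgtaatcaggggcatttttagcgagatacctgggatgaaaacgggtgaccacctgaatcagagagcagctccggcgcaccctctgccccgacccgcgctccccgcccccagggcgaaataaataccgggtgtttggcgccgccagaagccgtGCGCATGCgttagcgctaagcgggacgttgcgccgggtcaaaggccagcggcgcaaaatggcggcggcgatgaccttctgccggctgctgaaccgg
NDUFS3: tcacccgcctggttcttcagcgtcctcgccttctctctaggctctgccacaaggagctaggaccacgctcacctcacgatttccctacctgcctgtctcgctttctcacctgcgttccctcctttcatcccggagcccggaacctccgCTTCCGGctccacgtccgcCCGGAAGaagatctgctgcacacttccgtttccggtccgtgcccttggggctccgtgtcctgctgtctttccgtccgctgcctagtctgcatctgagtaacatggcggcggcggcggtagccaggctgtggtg
NDUFB2: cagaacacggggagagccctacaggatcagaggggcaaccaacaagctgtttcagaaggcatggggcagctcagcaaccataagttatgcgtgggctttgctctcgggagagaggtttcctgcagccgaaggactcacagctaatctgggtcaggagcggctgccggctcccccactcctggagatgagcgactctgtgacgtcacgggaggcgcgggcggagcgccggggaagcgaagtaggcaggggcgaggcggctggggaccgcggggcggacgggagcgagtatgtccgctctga

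NDUFB2, an accessory subunit of the membrane arm, showed the deepest 24 h fall among the nuclear members. It stood at 125, 93.9 and 101 CPM in the 24 h control, at 87.4, 84.1 and 96.9 at SP 3 h and at 59.0, 54.3 and 64.8 at SP 24 h, a log2 fold change of -0.85 (SE 0.13, edgeR quasi-likelihood, adjusted p = 0.00145). In the later table it read 83.5, 81.0 and 81.6 CPM in the control, 49.3, 47.9 and 52.1 at 3 days and 70.9, 72.3 and 56.8 at 12 days. The 3 day value was -0.72 (SE 0.09, edgeR quasi-likelihood, adjusted p = 1.15e-05) and the 12 day value -0.30 (SE 0.09, edgeR quasi-likelihood, adjusted p = 0.0126). With GC and length offsets the 12 day value was -0.21 with an adjusted p of 0.14 in that edgeR test. Of its 4447 exon bases NDUFB2 shares 64 with other genes on the same strand and 1560 on the other strand, with BRAF as the largest overlap. Reads there may have been left uncounted.

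NDUFS3, a core subunit of the peripheral arm, read 83.2, 62.6 and 64.7 CPM in the 24 h control and 47.1, 39.99 and 50.3 after 24 h (-0.62, SE 0.14, edgeR quasi-likelihood, adjusted p = 0.0118). At 3 days it went from 62.6, 52.9 and 64.5 to 40.3, 41.9 and 44.4 CPM (-0.51, SE 0.10, edgeR quasi-likelihood, adjusted p = 0.000766), and at 12 days to 39.1, 39.9 and 31.8 CPM (-0.70, SE 0.10, edgeR quasi-likelihood, adjusted p = 4.01e-05). No SP library reached a control library at any of the 3 times. NDUFS3 shares 721 of its 4507 exon bases with PTPMT1 on the same strand, and reads there may have been left uncounted.

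NDUFS6, which helps hold a zinc ion in the peripheral arm, moved from 131, 94.6 and 104 to 69.8, 59.6 and 76.7 CPM at 24 h (-0.68, SE 0.14, edgeR quasi-likelihood, adjusted p = 0.00664). NDUFS4, an accessory subunit whose loss causes Leigh syndrome, moved from 52.6, 36.2 and 39.0 to 26.3, 22.6 and 26.7 CPM (-0.76, SE 0.18, edgeR quasi-likelihood, adjusted p = 0.0121). NDUFA9, which stabilises the junction of the arms, moved from 27.7, 21.8 and 20.9 to 14.7, 12.6 and 15.6 CPM (-0.71, SE 0.18, edgeR quasi-likelihood, adjusted p = 0.0149). All 3 genes were lower in each SP library, and replicate 1 was the highest control in each. NDUFA9 shares 1103 of its 10391 exon bases on the same strand with ENSG00000255639, which was listed at 0 to 6 reads.

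At 3 and 12 days the values of these genes were -0.42 and -0.37 for NDUFS6, -0.32 and -0.37 for NDUFS4 and -0.53 and -0.44 for NDUFA9, every one past the test. NDUFC1, a small membrane-arm subunit, fell by 0.50, 0.57 and 0.42 at 24 h, 3 days and 12 days on the log2 scale. Without SP 24 h replicate 2 the 24 h calls of NDUFA9, NDUFC1, NDUFS3 and NDUFS4 were lost, with adjusted p of 0.07, 0.073, 0.056 and 0.059 in edgeR's quasi-likelihood test. Without control 3 day replicate 1 NDUFS6 was lost at 12 days, with an edgeR adjusted p of 0.064, and with GC and length offsets NDUFS4 was lost at 3 days (-0.11, edgeR adjusted p 0.26).

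NDUFAB1 has a second role as the mitochondrial acyl carrier protein of fatty acid synthesis. It read 55.2, 48.9 and 50.1 CPM in the 3 day control, 34.4, 40.1 and 37.8 at SP 3 days and 57.6, 58.9 and 41.8 at SP 12 days, so that it fell at 3 days (-0.46, SE 0.12, edgeR quasi-likelihood, adjusted p = 0.00464) and lay on the control at 12 days (0.03). NDUFA8, named after its values were seen, had -0.39 at 24 h and -0.43 at 3 days, both past the test, and was not called at 12 days. NDUFA7 was called at 3 days (-0.99, edgeR quasi-likelihood adjusted p = 0.0453) on 28 reads against 60, and it had at most 1.36 CPM in any library. Its SP 3 day levels alone would not have passed the filter on low counts, and the call is part of the 3 day falls counted above.

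Complex I rises were few. NDUFV3, a small subunit beside the flavin site, went from 27.6, 26.8 and 27.3 CPM in the 3 day control to 32.6, 32.9 and 32.2 at 3 days (0.26, SE 0.08, edgeR quasi-likelihood, adjusted p = 0.0161) and 34.0, 35.6 and 35.4 at 12 days (0.36, SE 0.08, edgeR quasi-likelihood, adjusted p = 0.00159). These libraries were close to each other and clear of the controls, although the 3 day call was lost with GC and length offsets (0.06) or without control 3 day replicate 1 or SP 3 day replicate 1 or 2. NDUFC2 rose at 12 days only (0.42, SE 0.11, edgeR quasi-likelihood, adjusted p = 0.00462), and NDUFA2 was called there at 0.21.

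**Figure D3:**
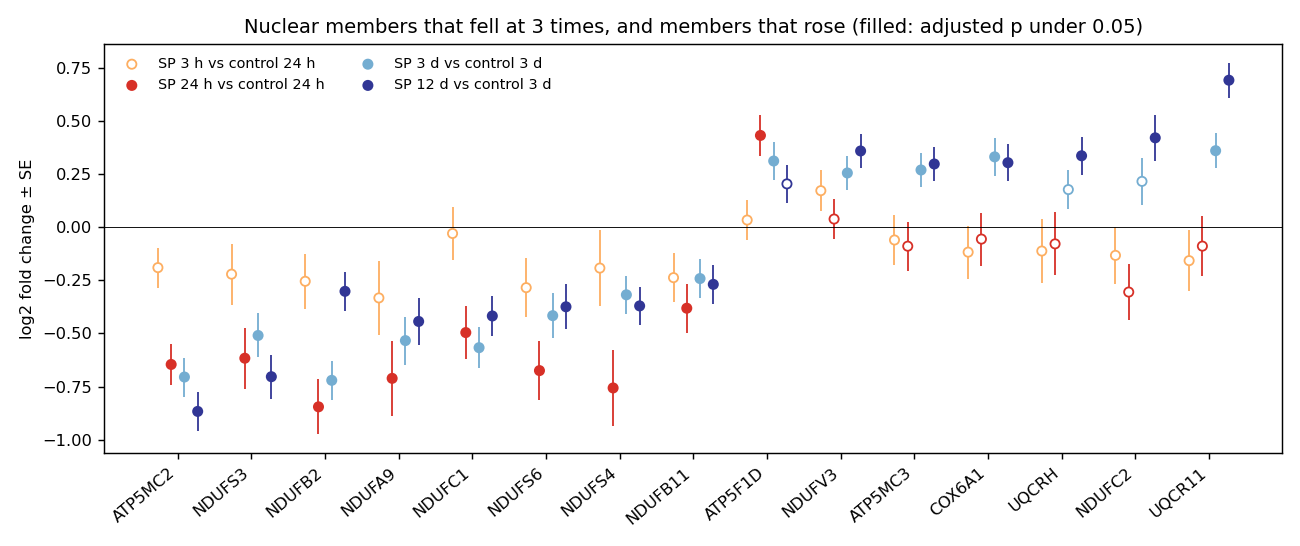
Log2 fold change with its SE (vertical axis) of 15 nuclear members (horizontal axis) in the 4 comparisons with control, told apart by colour; filled points had an adjusted p under 0.05. The 8 genes on the left are filled and below 0 at 24 h, 3 days and 12 days, from -0.87 for ATP5MC2 at 12 days to -0.24 for NDUFB11 at 3 days, and UQCR11 on the right reaches 0.69 at 12 days.

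In complex III the one nuclear member with a large rise was UQCR11, a small subunit of the membrane part. Its promoter, at chr19:1605413-1605712 on the minus strand, is shown because it was the nuclear member of ordinary abundance that rose most, and it held 2 ETS cores.
UQCR11: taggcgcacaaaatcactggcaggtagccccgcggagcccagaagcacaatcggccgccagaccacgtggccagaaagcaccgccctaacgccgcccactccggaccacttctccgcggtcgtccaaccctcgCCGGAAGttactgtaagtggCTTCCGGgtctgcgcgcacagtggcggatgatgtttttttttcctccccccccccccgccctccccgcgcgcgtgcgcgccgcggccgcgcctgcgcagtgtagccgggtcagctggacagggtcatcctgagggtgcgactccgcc

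UQCR11 stood at 46.2, 45.2 and 45.6 CPM in the 3 day control, at 61.0, 60.6 and 54.4 at SP 3 days and at 79.4, 73.6 and 68.8 at SP 12 days. The groups stood in steps without overlap, with log2 fold changes of 0.36 (SE 0.08, edgeR quasi-likelihood, adjusted p = 0.0021) and 0.69 (SE 0.08, edgeR quasi-likelihood, adjusted p = 4.73e-06). In the early table it had -0.16 at 3 h and -0.09 at 24 h, neither past the test. UQCRH, the hinge subunit that binds cytochrome c1, rose at 12 days (0.34, SE 0.09, edgeR quasi-likelihood, adjusted p = 0.00563), and UQCRC1, a core protein, was called at 3 days at 0.25 with overlapping libraries. UQCRFS1, the Rieske iron-sulphur protein, and UQCRQ fell at 24 h, by 0.42 and 0.38 on the log2 scale, and were not called at 3 or 12 days.

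Complex IV held the largest change of all 92 tested members, that of COX6B2, the testis isoform of the subunit that links the monomers of the dimer. Its gene lies at chr19:55349306-55354719 on the minus strand, and the ubiquitous isoform COX6B1 elsewhere on chromosome 19. Their promoters are shown together because one isoform was called and the other was not: that of COX6B1, at chr19:35648073-35648372 on the plus strand, held 1 ETS core, 16 CpG and 56.7% GC, and that of COX6B2, at chr19:55354670-55354969 on the minus strand, none of the 3 cores, 31 CpG and 72% GC.
COX6B1: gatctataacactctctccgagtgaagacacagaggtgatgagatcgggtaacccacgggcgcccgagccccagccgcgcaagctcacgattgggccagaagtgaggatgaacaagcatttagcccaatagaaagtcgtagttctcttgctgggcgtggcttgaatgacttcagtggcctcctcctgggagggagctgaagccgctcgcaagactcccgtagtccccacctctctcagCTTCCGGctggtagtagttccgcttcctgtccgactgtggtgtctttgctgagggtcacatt
COX6B2: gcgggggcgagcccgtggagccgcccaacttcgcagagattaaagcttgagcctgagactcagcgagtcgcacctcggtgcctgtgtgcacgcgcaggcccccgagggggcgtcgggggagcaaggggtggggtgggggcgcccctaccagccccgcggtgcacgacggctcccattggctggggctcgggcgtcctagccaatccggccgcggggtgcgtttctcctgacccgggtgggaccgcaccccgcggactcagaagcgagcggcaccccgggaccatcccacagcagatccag

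COX6B2 was near the limit of detection in the controls, with 2, 3 and 11 reads at 24 h and 15, 13 and 10 at 3 days. SP libraries held 36, 96 and 55 reads at 3 h, 74, 246 and 172 at 24 h, 209, 170 and 218 at 3 days and 80, 83 and 230 at 12 days. As levels, the 24 h control held 0.11, 0.16 and 0.39 CPM, SP 3 h 2.54, 3.11 and 2.24, SP 24 h 2.99, 5.51 and 5.81, the 3 day control 0.72, 0.81 and 0.59, SP 3 days 12.7, 10.4 and 13.04 and SP 12 days 5.06, 4.14 and 10.2. Every SP library lay above every control of its table.

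The log2 fold changes of COX6B2 were 3.46 at 3 h (SE 0.44, edgeR quasi-likelihood, adjusted p = 0.00175) and 4.32 at 24 h (SE 0.42, edgeR quasi-likelihood, adjusted p = 0.000156). They were 4.08 at 3 days (SE 0.37, edgeR quasi-likelihood, adjusted p = 2.57e-06) and 3.20 at 12 days (SE 0.38, edgeR quasi-likelihood, adjusted p = 2.62e-05). It was the single member that rose at 3 h and the one that passed the stricter thresholds upward, at 3 and 12 days in edgeR and at all 4 times in DESeq2. In both tables it entered the test through its SP libraries, since its control levels alone would not have passed the filter on low counts. Without that filter its values were 3.45 at 3 h, 4.32 at 24 h, 4.10 at 3 days and 3.23 at 12 days. The ratio of reads per counted read was 11.3 at 3 h (95% exact interval 6.77 to 20.2), 21.1 at 24 h (12.8 to 37.1), 16.8 at 3 days (12.1 to 23.9) and 9.34 at 12 days (6.69 to 13.4), intervals that cover counting error only. The 3 h call was lost when the 2 groups were fitted alone with a replicate block (edgeR adjusted p 0.126).

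COX6B1 took 160 to 257 CPM across all libraries and was called at no time, with log2 fold changes of -0.13, -0.27, -0.01 and 0.02. Per kilobase of canonical transcript, COX6B2 stood at 0.45 CPM per kb in the 3 day control and 7.69 at SP 3 days, its highest group, against 412 and 409 CPM per kb for COX6B1 (means, n = 3 each), so that it remained far below COX6B1 after SP. COX6B2 shares 1083 of its 3720 exon bases with the readthrough gene ENSG00000267706, which itself was listed at 0 to 25 reads, and shared reads may have been left out of both.

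NDUFA4L2, the paralogue of NDUFA4 known as a target of hypoxia-inducible factor, took the opposite course in the later table. It read 4.26, 5.76 and 4.85 CPM in the 3 day control, 1.65, 1.58 and 1.79 at SP 3 days and 1.33, 0.998 and 1.15 at SP 12 days, with no overlap. The log2 fold changes were -1.55 (SE 0.20, edgeR quasi-likelihood, adjusted p = 1.21e-05) and -2.09 (SE 0.21, edgeR quasi-likelihood, adjusted p = 6.81e-07), and it was the member that passed the stricter thresholds downward. In the early table it stood at 0.688 to 1.33 CPM in all libraries and was not called, with -0.01 at 3 h and -0.28 at 24 h. Its read ratios were 0.337 (95% exact interval 0.260 to 0.433) at 3 days and 0.230 (0.173 to 0.302) at 12 days. NDUFA4 stood at 130 ± 9.5 CPM in the 3 day control and 154 ± 9.2 at 12 days (mean ± SD, n = 3), where it rose by 0.24 on the log2 scale (edgeR quasi-likelihood, adjusted p = 0.0171).

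COX7A1, the heart and muscle isoform of COX7A, was the single member that fell at 3 h. It had 18, 15 and 18 reads in the 24 h control and 6 in each SP 3 h library, a log2 fold change of -1.54 (SE 0.38, edgeR quasi-likelihood, adjusted p = 0.029). At 24 h it had 19, 30 and 31 reads and lay on the control (0.07). Its SP 3 h levels alone would not have passed the filter on low counts, so that it entered the test through the groups where it was higher. The 3 h call was lost without control 24 h replicate 1 or 2 or SP 3 h replicate 2 or 3, at an edgeR adjusted p of up to 0.15. COX7A2, the ubiquitous isoform, rose at 12 days, from 78.2 ± 4.0 to 95.7 ± 2.0 CPM (mean ± SD, n = 3; 0.29, SE 0.07, edgeR quasi-likelihood, adjusted p = 0.00377).

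The other tissue isoforms were all but silent. COX6A2 had no read in any library, which allows up to 3 reads in each, COX8C had 1 read in 1 library, COX4I2 at most 2 reads and COX7B2 at most 4. Their ubiquitous partners were abundant. COX4I1, at 284 ± 29 CPM in the 3 day control (mean ± SD, n = 3), COX7B and COX8A were called at no time. COX6A1 rose at 3 days, from 113, 109 and 128 to 135, 154 and 151 CPM (0.33, SE 0.09, edgeR quasi-likelihood, adjusted p = 0.00544), and at 12 days to 144, 134 and 153 CPM (0.31, SE 0.09, edgeR quasi-likelihood, adjusted p = 0.00897). The latter call was lost without control 3 day replicate 2, at an edgeR adjusted p of 0.051. COX6C rose at 12 days by 0.31, and COX7C was called lower at 24 h at -0.40. COX7A2L, which helps complexes III and IV associate, was called at no time, with values from -0.30 to 0.10.

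**Figure D4:**
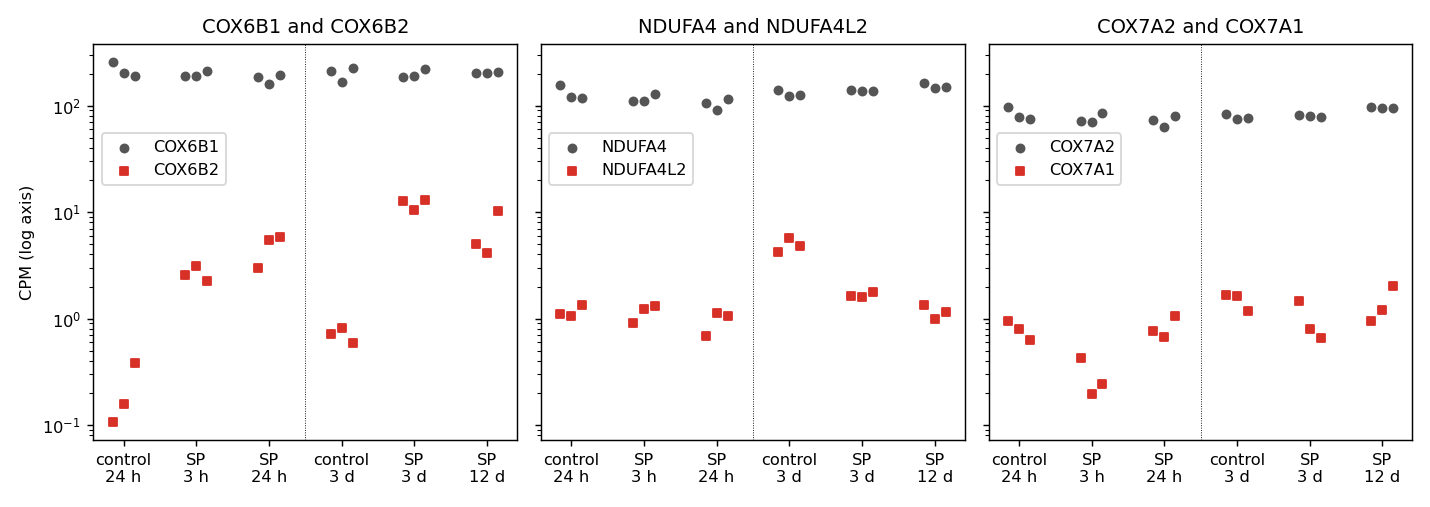
Levels in CPM (vertical log axis) of 3 isoform pairs of complex IV in the 6 groups (horizontal axis), with a point for each of the 3 libraries of a group and a dotted line between the 2 tables. COX6B2 (left) lies below 1 CPM in both controls and between 2.24 and 13.04 CPM in all SP libraries, NDUFA4L2 (middle) drops only in the later table, from 4.26 to 5.76 CPM in its control to 0.998 to 1.79 CPM, and COX7A1 (right) dips at SP 3 h.

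In complex V the most regular fall was that of ATP5MC2, 1 of 3 genes that encode the identical mature c subunit of the rotor ring. It read 182, 153 and 159 CPM in the 24 h control, 142, 141 and 149 at SP 3 h and 105.3, 102 and 108 at SP 24 h (-0.65 at 24 h, SE 0.09, edgeR quasi-likelihood, adjusted p = 0.00118). In the later table it read 206, 176 and 229 CPM in the control, 117, 126 and 131 at 3 days and 110, 114 and 112 at 12 days. The changes were -0.71 (SE 0.09, edgeR quasi-likelihood, adjusted p = 1.22e-05) and -0.87 (SE 0.09, edgeR quasi-likelihood, adjusted p = 1.33e-06). No SP library of any time reached a control library, and the calls held without each library in turn.

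ATP5MC3, a sister gene for the same c subunit, rose in the later table, from 129, 116 and 136 CPM to 149, 155 and 156 at 3 days (0.27, SE 0.08, edgeR quasi-likelihood, adjusted p = 0.0106) and 164, 156 and 149 at 12 days (0.30, SE 0.08, edgeR quasi-likelihood, adjusted p = 0.00545). The 3 day call was lost without control 3 day replicate 2, at an edgeR adjusted p of 0.061. Per kilobase of canonical transcript, ATP5MC2 still stood above ATP5MC3 at 12 days, at 177 against 60.4 CPM per kb, after 323 against 49.0 in the 3 day control (means, n = 3 each). The 3 genes of the subunit and their pseudogenes are similar in their coding part, so reads there may be shared or dropped by the counting.

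ATP5F1D, the delta subunit of the central stalk, went from 66.9, 60.1 and 72.2 to 90.03, 86.7 and 92.3 CPM at 24 h (0.43, SE 0.10, edgeR quasi-likelihood, adjusted p = 0.00919) and from 60.6, 55.5 and 70.7 to 78.3, 80.0 and 73.8 CPM at 3 days (0.31, SE 0.09, edgeR quasi-likelihood, adjusted p = 0.0101). Its direction depends on the scaling, since offsets for GC content and length gave -0.30 and -0.21, neither past the test. ATP5IF1, the inhibitor of the reverse reaction of the synthase, fell at 3 days from 65.3, 55.0 and 65.3 to 47.7, 47.2 and 48.6 CPM (-0.37, SE 0.10, edgeR quasi-likelihood, adjusted p = 0.00632), and with those offsets had -0.27 and an edgeR adjusted p of 0.061. ATP5MF fell at 24 h and 3 days, by 0.45 and 0.30 on the log2 scale. ATP5MK, a small subunit of the dimer, was called at 12 days at 0.49 with overlapping libraries.

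SP groups were also set against each other within each table, which compares times of treatment without a control of the earlier or later time. Between 3 h and 24 h of SP, 2 nuclear members were higher and 3 lower at 24 h, where 11.7% of all tested genes were higher and 8.40% lower, and no mitochondrial gene was called by edgeR or DESeq2, with 2 at an unadjusted p under 0.05. The higher were COX7A1 and ATP5F1D and the lower NDUFB2, NDUFC1 and ATP5MC2. The count of 5 was 9 without control 24 h replicate 1 (22.2% of all genes called in either direction), 3 without SP 3 h replicate 1 (11.7%) and 2 without replicate 2 or 3 of SP 3 h or SP 24 h (9.73% to 15.03%), where 20.1% of all genes were called with every library in. Between 3 and 12 days 7 nuclear members were higher and 0 lower at 12 days by edgeR, where 4.46% of all tested genes were higher and 3.65% lower, with 3 members lower at an unadjusted p under 0.05 and 1 by DESeq2. They were ATP5MK, COX6C, COX7A2, NDUFA8, NDUFAB1, NDUFB2 and UQCR11. This last count rests on single libraries, being 0 without SP 3 day replicate 2 or SP 12 day replicate 1 or 2, 1 without SP 3 day replicate 1 or 3 and 19 without SP 12 day replicate 3. In these fits 3.04% to 4.99%, 3.32% to 3.87% and 28.1% of all genes were called in either direction, so that the 19 members (20.7% of 92) lay below the share of all genes.

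The genes around the subunits gave counts of their own, to be read beside the shares of all tested genes that rose and fell, 7.39% and 4.11% at 3 h, 16.8% and 12.0% at 24 h, 25.2% and 23.3% at 3 days and 26.4% and 23.4% at 12 days. Of 6 genes of complex II, cytochrome c and cytochrome c1, 2 fell at 24 h, 1 fell at 3 days, and 1 rose and 1 fell at 12 days. CYC1, the cytochrome c1 of complex III, fell at 24 h, 3 days and 12 days, with -0.47, -0.36 and -0.32, and SDHC, a membrane anchor of complex II, had -0.36 at 24 h. CYCS, cytochrome c itself, rose at 12 days (0.37, SE 0.12, edgeR quasi-likelihood, adjusted p = 0.015).

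Of 14 complex I assembly factors 7 (50%) fell at 24 h, with a median of -0.43. They included NDUFAF6 (-0.92), ECSIT (-0.83) and NDUFAF8 (-0.71). At 3 days 4 fell (28.6%) and 1 rose, and at 12 days 2 fell (14.3%) and 1 rose, so that these later falls lay near or below the share of all genes. ECSIT fell again, with -0.57 and -0.85. Of 29 assembly factors of complexes III, IV and V 2 fell at 3 h, 7 fell and 2 rose at 24 h, 13 fell and 3 rose at 3 days and 5 fell and 4 rose at 12 days. COX10, which takes part in making the haem of complex IV, was the clearest at 3 h (-0.91, SE 0.11, edgeR quasi-likelihood, adjusted p = 0.00131), and UQCC2, which complex III assembly needs, at 3 days (-0.50).

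Genes that keep, transcribe and process mitochondrial DNA and RNA bear on the 13 mitochondrial members. Of 29 tested, 1 fell at 3 h, 7 fell at 24 h, 7 fell and 1 rose at 3 days and 7 fell and 6 rose at 12 days. The 7 falls are 24.1% of the list, above the share of all genes at 24 h and near it at 3 and 12 days, and the 6 rises (20.7%) lay below it. The median at 24 h was -0.34, while the median of the 13 mitochondrial genes was 0.23. MTERF4, which brings a methyltransferase to the mitochondrial ribosome, fell at 24 h (-0.38), 3 days (-0.70) and 12 days (-0.68). TFB2M, which opens the mitochondrial promoters for the polymerase, fell at 3 days (-0.47), and TRMT10C, a part of the RNase that frees the mRNAs from their tRNAs, rose at 12 days (0.59).

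Of 8 transcription regulators of respiratory genes, 1 rose and 1 fell at 3 h, 1 fell at 24 h, 1 rose and 2 fell at 3 days and 1 rose and 3 fell at 12 days. With 8 genes, 1 fall at 24 h (12.5%) and 2 at 3 days (25%) were near the share of all genes. PPARGC1A, the coactivator PGC-1alpha, rose at 3 h (1.44, SE 0.37, edgeR quasi-likelihood, adjusted p = 0.0361), and its relative PPARGC1B rose at 3 days (1.00, SE 0.12, edgeR quasi-likelihood, adjusted p = 4.94e-06) and 12 days (1.08, SE 0.12, edgeR quasi-likelihood, adjusted p = 1.93e-06). NRF1, whose core letters were counted in the promoters, fell at 24 h (-0.35) and 12 days (-0.50). Both subunits of GABP had falls, GABPB1 at 3 h (-0.94) and GABPA at 3 days (-0.52) and 12 days (-0.35).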

How the data were processed

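RNA of wild-type A549 cells, untreated or treated with 5 mM SP, was measured in 18 libraries. The authors deposited raw counts of reads per gene, as whole numbers with no normalization, in 2 tables of 9 libraries each. Per the study's methods and the submitters' processing notes, libraries were made with a NEBNext Ultra kit, sequenced in pairs, aligned to GRCh38 with STAR 2.7.9a, counted with featureCounts and tested with DESeq2 1.36.0 in R 4.2.1. Whether strand was used, and how reads that map to several places were treated, is not given in the sources used here. Such reads bear on 47 nuclear members that share exon bases with another gene and 46 that have a named pseudogene, and on the 13 mitochondrial members, which have 404 named nuclear pseudogenes. The authors used Ensembl annotation of GRCh38. Symbols, positions and lengths were taken here from GENCODE v44, which matched 61369 of the 61541 genes listed. No column lacked a sample.

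Tests used edgeR 4.0.16 (limma 3.58.1) under R 4.3.3. Genes were kept by filterByExpr with a minimum count of 10, which left 17775 genes in the 3 day and 12 day table and 17377 in the other, and libraries were scaled by TMM factors (0.957 to 1.04). Total counts were 14187401 to 43765330 per library. One quasi-likelihood model per table over all 9 libraries gave each comparison, with Benjamini-Hochberg adjustment over all tested genes, and each table was tested on its own. Intervals of read ratios are exact and cover counting error only. The code was tested on simulated data.

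Same-numbered libraries of the 24 h control and SP 24 h groups deviated together (correlation of residuals 0.170 to 0.504 in 3 pairs). The 6 pairs of unlike number gave -0.546 to 0.175, so the ranges overlapped slightly. The labels give no pairing and this check does not settle it. The reported tests therefore used none, and a replicate block was run as an alternative. Other groups gave no such pattern (SP 3 h with its control -0.59 to -0.03). Alternatives were RLE factors, no filter, scaling without the mitochondrial genes, DESeq2 1.42.0, only the groups compared, a replicate block, offsets for GC content and length (alone and with the block), the stricter thresholds and each library left out. The offsets for GC content and length were not applied to the mitochondrial genes. The 2-group fit with a block was added after seeing the data. The members, gene lists and motifs were chosen with earlier results of these data known. Named were the 13 mitochondrial genes, up to 5 highest and 5 lowest nuclear members per comparison with control (called, mean count in 1 of the groups not under 100, no overlap of libraries), any member past the stricter thresholds, the isoform pairs of complex IV, ATP5IF1, NDUFAB1 and COX7A2L, and up to 3 genes of a list by p. Other members named (ATP5F1B, ATP5MF, ATP5MK, COX6C, COX7C, NDUFA2, NDUFA7, NDUFA8, NDUFB11, UQCRC1, UQCRFS1, UQCRQ and the members not tested) were chosen after their values were seen.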

Additional observations from a re-analysis of the deposited data

Results flagged for a closer look

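In 12 cases the levels at 2 times of SP in the same table differed in the test of SP against SP. With no control at 3 h or 12 days, length of treatment and length of culture cannot be told apart in them. Values are log2 differences, later minus earlier time, and each had an adjusted p under 0.05 in edgeR's quasi-likelihood test. From 3 to 12 days NDUFAB1 differed by 0.49, NDUFA8 by 0.47, ATP5MK by 0.43, NDUFB2 by 0.42, UQCR11 by 0.33, COX6C by 0.29 and COX7A2 by 0.26. None of these calls held without SP 3 day replicate 2 or without SP 12 day replicate 1 or 2. For NDUFB2 and NDUFAB1 the 3 day fall was smaller or gone at 12 days, and for UQCR11 the 3 day rise was larger.

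Between 3 h and 24 h COX7A1 differed by 1.62, ATP5F1D by 0.40, ATP5MC2 by -0.46, NDUFC1 by -0.47 and NDUFB2 by -0.59. COX7A1 rests on 18 reads at 3 h. ATP5F1D turned to -0.11 with GC and length offsets. Only the ATP5MC2 call held without each library in turn.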

How the results depend on the processing

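Counts are given as in the report, then under the alternative. With GC and length offsets, nuclear falls at 24 h went from 20 to 32, nuclear rises at 3 days from 7 to 13 and at 12 days from 12 to 19, and members changed from 5 to 10 between 3 h and 24 h of SP and from 7 to 4 between 3 and 12 days, while the falls among all genes went from 12.0% to 25.2% at 24 h and the rises from 25.2% to 21.5% at 3 days and from 26.4% to 22.9% at 12 days. These offsets with the replicate block gave 36 nuclear falls at 24 h, 3 at 3 h (from 1), 14 nuclear rises at 3 days, 20 members changed between 3 h and 24 h and a mitochondrial median of 0.29 at 24 h (from 0.23). The mitochondrial genes received no such offset, so their values do not test the effect of GC content and length on them. Of all genes 27.5% then fell at 24 h, 11.6% fell at 3 h and 21.3% rose at 3 days. Between 3 h and 24 h of SP 28.2% of all genes changed with the offsets and 33.1% with the block added, from 20.1%. Between 3 and 12 days 8.41% changed with the offsets, from 8.10%. ATP5F1D was reversed by the offsets, to -0.30 at 24 h (-0.29 with the block), -0.21 at 3 days (-0.21) and -0.11 for 24 h against 3 h (-0.11).

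The replicate block alone, which pairs the libraries, gave a mitochondrial median of 0.29 at 24 h and left MT-ND1 short of the threshold (adjusted p 0.0678 in edgeR's quasi-likelihood test). With only the 2 groups compared, nuclear falls were 12 at 24 h and 0 at 3 h, mitochondrial calls at 3 days 1 higher and 2 lower (from 0 each), and members changed 10 and 4. With that and a replicate block they were 0 nuclear rises and 0 falls at 3 h, a mitochondrial median of 0.27 at 24 h, 12 nuclear rises and 1 mitochondrial rise and 5 falls at 3 days, and 9 and 3 members changed. Of all genes 9.86% fell at 24 h and 2.16% at 3 h with only the 2 groups, and 25.5% and 5.44% changed between times. At 3 days 28.7% of all genes then rose and 29.0% fell. With the block added 0% were called at 3 h, 30.3% rose and 31.6% fell at 3 days, and 22.1% and 4.78% changed between times. Without the filter on low counts, 1 mitochondrial gene rose at 3 days and 4 fell at 12 days, where 12.7% of all genes rose at 3 days and 9.93% fell at 12 days. Under the stricter thresholds in edgeR the calls were 0 at 3 h and 24 h in both genomes (in DESeq2 1 nuclear rise, COX6B2, at each), 1 nuclear rise and 1 fall at 3 and at 12 days, 0 mitochondrial falls at 12 days and 0 members changed between times of SP.

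When single libraries were left out there were 0 to 1 nuclear falls at 3 h, 3 to 29 at 24 h and 7 to 14 at 12 days, and 4 to 10 nuclear rises at 3 days. Mitochondrial rises ranged from 0 to 5 at 24 h and 0 to 1 at 3 days, and falls from 0 to 4 at 3 days and 2 to 5 at 12 days. Members changed ranged from 2 to 9 between 3 h and 24 h and from 0 to 19 between 3 and 12 days. Of all genes 1.80% to 3.92% fell at 3 h, 5.22% to 17.3% at 24 h and 19.4% to 27.6% at 12 days in these fits. At 24 h 10.6% to 19.7% of all genes rose, and at 3 days 21.6% to 28.6% rose and 18.5% to 29.0% fell. Between times 9.73% to 24.7% (3 h and 24 h) and 3.04% to 28.1% (3 and 12 days) of all genes changed. Mitochondrial medians ranged from -0.024 to 0.082 at 3 h and 0.10 to 0.25 at 24 h, and nuclear medians from -0.21 to -0.02 at 3 h, -0.12 to -0.000166 at 3 days and -0.01 to 0.08 at 12 days. Causes were not tested, beyond the fewer libraries of these fits.

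Of 486 summary values under alternatives 409 kept their call or lay near the reported value, and of 2976 values of named genes 2794 did, 108 were lost, 67 gained and 6 reversed. Depth limits COX6B2, NDUFA4L2, COX7A1 and NDUFA7, which rest on few reads.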
